A study of Mus musculus with 5 samples.

Results

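MAP kinase phosphatases and Sprouty proteins are the brakes that cells put on growth-factor, antigen-receptor and cytokine signals. The 9 genes described here are the dual-specificity phosphatase genes Dusp1, Dusp2, Dusp4, Dusp5, Dusp6, Dusp7 and Dusp10 and the Sprouty genes Spry1 and Spry2. They were found by matching the RefSeq accession of every probe that is no control spot to these symbols, which gave 9 probes, 1 for each gene, among 55681 probes and 20022 named genes. They were measured on 1-colour microarrays in natural killer T (NKT) cells, T cells that recognise lipids on CD1d, sorted from the thymus of C57BL/6 mice as cells positive for CD3e and a CD1d tetramer. The genotypes compared were IL15-/- (IL15ko, 2 samples) and wild-type (WT, 3 samples), and each sample was made from 10 pooled thymi. IL15ko mice lack interleukin-15 (IL-15) in all cells, so the comparison does not separate signals that NKT cells receive themselves from effects of IL-15 on other cells. The labels give neither age nor sex, and do not say whether samples of a genotype came from separate pools of animals.

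A MAP kinase (ERK, JNK or p38) is active only while a threonine and a tyrosine in its activation loop are both phosphorylated, and a dual-specificity phosphatase removes both phosphates. Many of these phosphatase genes are themselves switched on by the kinases they oppose, which makes them feedback regulators whose transcripts follow recent signalling. Sprouty proteins act further upstream and dampen the passage from receptors through Ras to ERK. In T cells such signals come from the antigen receptor and from cytokine receptors, among them the receptor for IL-15.

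Without IL-15, thymic NKT cells had a lower level of Dusp6. Spry2 was also called lower, but a separation of its groups is not established, and the 6 other tested genes did not pass the test. Dusp6, the cytoplasmic phosphatase specific for ERK, fell 2.61-fold. Spry2 was well above background on all 3 WT arrays and on neither IL15ko array. Levels below are log2 of Agilent's processed signal minus the array's 75th percentile, called normalised log2 signal, and a probe is well above background where Agilent's software marked it so. Of the 9 genes, 8 were well above background on at least 2 arrays and were compared by limma among 11997 genes, and Dusp4 was not. A gene is called where its limma p, after Benjamini-Hochberg adjustment, is under 0.05. Of the 8 genes 2 were called lower and 0 higher in IL15ko, and the counts at an unadjusted p under 0.05 were also 2 and 0. Spry2, 1 of these 2, met the requirement of 2 arrays only through WT. Where all 5 arrays were required, Spry2 was not tested and 1 member was called lower. Over all genes tested 7.33% were called, 3.58% lower and 3.75% higher. The median log2 difference (IL15ko minus WT) was -0.52 over the 8 genes, Spry2 among them, and 0.01 over all genes tested.

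**Figure D1:**
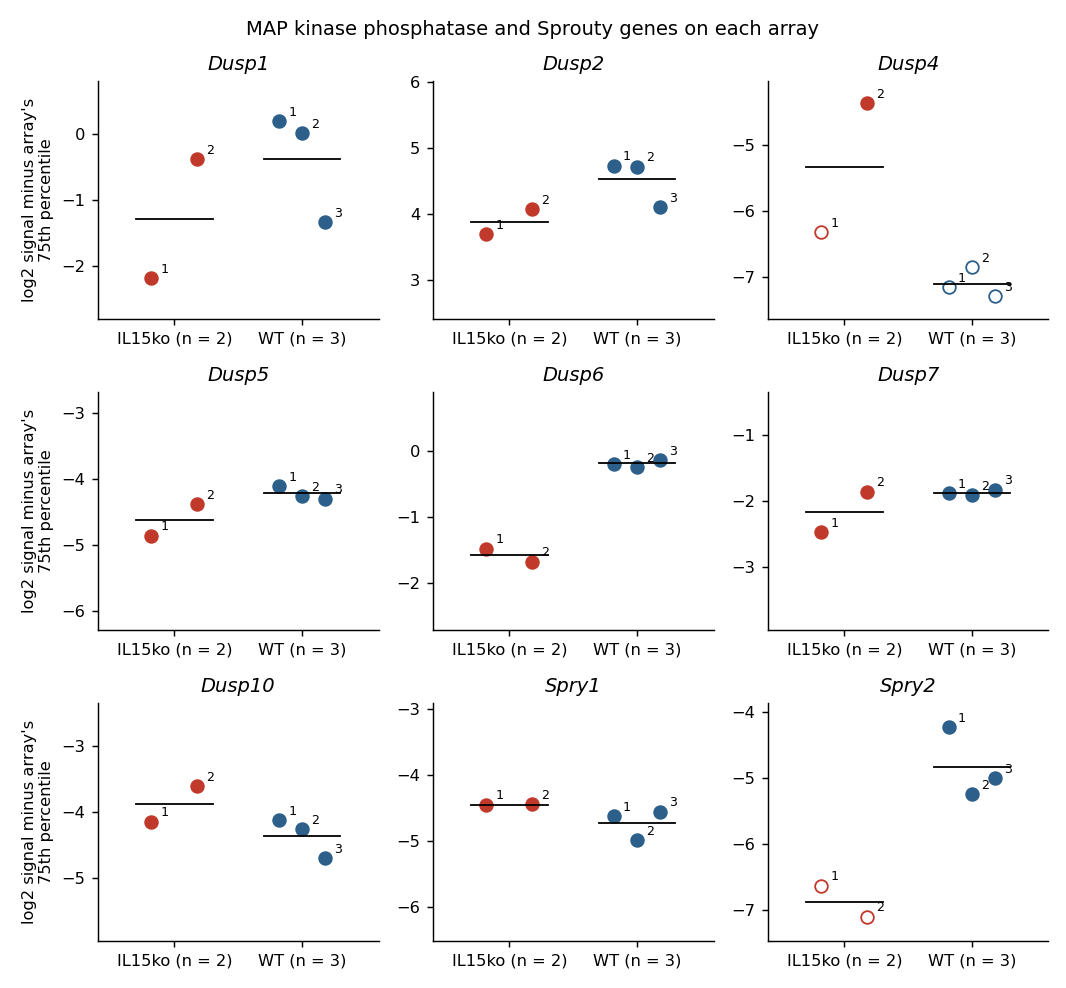
Normalised log2 signal of each gene on each array, IL15ko left and WT right. Each dot is 1 array with its replicate number, open dots are not well above background, black lines are group means, and every panel spans the same number of log2 units. The Dusp6 groups lie 1.22 log2 units apart, both IL15ko dots of Spry2 are open, and Dusp1 spreads over 1.81 log2 units in IL15ko and 1.53 in WT.

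The arrays differed in brightness. The share of probes well above background was 45.2% and 33.9% on IL15ko arrays 1 and 2 and between 44.6% and 49.6% on the WT arrays. All 5 arrays lay on 1 slide, with IL15ko 2 in another row of the slide than the other 4. WT 1 and WT 2 were closer to each other than any other pair of arrays, the robust SD between them being 0.155 log2 units, against 0.365 to 0.622 for the other pairs. The Il15 probe was on no array well above background and does not check the genotypes. All 10 T-cell markers examined, among them Cd3e, Lck and Zbtb16, were well above background on all 5 arrays.

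Dusp6 had normalised log2 signals of -1.48 and -1.68 on the IL15ko arrays, against -0.20, -0.25 and -0.14 on the WT arrays. Both IL15ko values lay at least 1.22 log2 units below every WT value, and the spread within each genotype was small. The means were -1.58 ± 0.14 in IL15ko (SD, n = 2) and -0.19 ± 0.06 in WT (SD, n = 3), a log2 difference of -1.38 ± 0.13 (SE, limma adjusted p = 0.0109). The 95% confidence interval of the fall was 2.06-fold to 3.29-fold. In sorted cells a smaller share of cells that express a gene and less RNA per cell cannot be told apart. Dusp6 had a smaller spread within groups than most genes, since 14.9% of all tested genes had a smaller one. The log2 difference lay between -1.48 and -1.20 over 18 processing alternatives, but the call depended on the arrays used, with adjusted p values of 0.0824 without WT 1, 0.0605 without WT 2 and 0.0507 without IL15ko 2.

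Spry2, an inhibitor of Ras-ERK signalling that ERK activity itself induces, had normalised log2 signals of -6.63 and -7.10 on the IL15ko arrays and of -4.23, -5.24 and -5.00 on the WT arrays. Both measured IL15ko signals lay below the WT signals, but neither was well above background. The lowest signal well above background was -6.53 on IL15ko 1 and -4.92 on IL15ko 2. The limit on IL15ko 2 lies above WT 2 and WT 3, so a separation of the groups is not established on that array. Only an approximate bound of the fold can be given. Each IL15ko signal was replaced by its array's lowest signal well above background where that was higher. Spry2 was then 1.87-fold lower in IL15ko. This bound is approximate, since a probe not well above background can exceed that lowest signal, as Dusp4 did on IL15ko 1 (-6.32). The fitted log2 difference of the measured signals was -2.04 ± 0.34 (SE, limma adjusted p = 0.0333), with means of -6.87 ± 0.33 in IL15ko (SD, n = 2) and -4.83 ± 0.53 in WT (SD, n = 3). This call was less stable than that of Dusp6. It was lost when any 1 of the 5 arrays was left out (adjusted p between 0.0622 and 0.16), and the log2 difference was -1.09 in the authors' deposited table and -0.57 with normexp background correction, both on a different background than the bound.

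**Figure D2:**
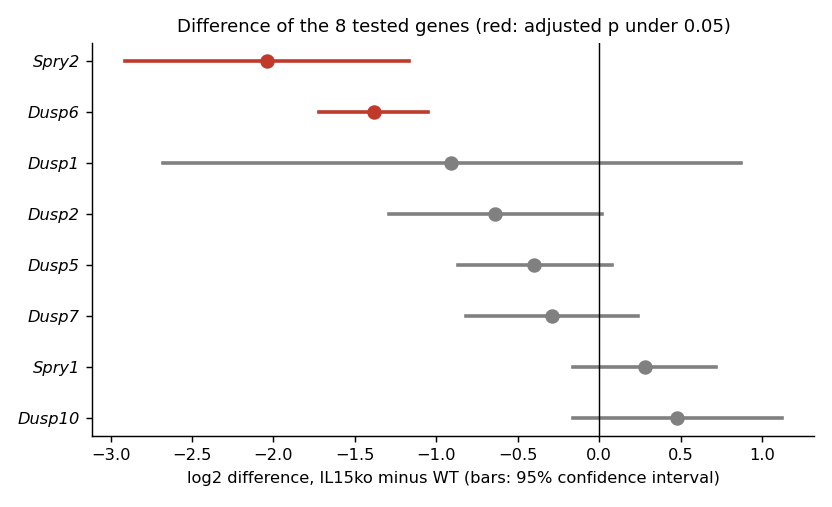
Log2 difference (IL15ko minus WT) of the 8 tested genes on the horizontal axis, with 95% confidence intervals from limma as bars. Dusp6 (-1.38) and Spry2 (-2.04) are drawn in red as called, and the intervals of the other 6 genes include 0.

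Spry1, the second Sprouty gene, did not show the difference fitted for Spry2. It had normalised log2 signals of -4.45 and -4.44 in IL15ko and of -4.63, -4.99 and -4.56 in WT. The IL15ko values were close together and lay just above all WT values, and the log2 difference of 0.28 ± 0.17 (SE) did not pass the test (limma adjusted p = 0.358). No ratio of Spry2 to Spry1 is given, since Spry2 was not well above background on the IL15ko arrays.

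Dusp7, the other cytoplasmic phosphatase that acts on ERK, had normalised log2 signals of -2.48 and -1.86 in IL15ko and of -1.89, -1.92 and -1.83 in WT. IL15ko 2 lay within the WT values and IL15ko 1 below them. The log2 difference was -0.29 ± 0.21 (SE, limma adjusted p = 0.409), and it was 0.01 without IL15ko 1. Dusp6 was also compared with Dusp7 within each array, where scaling between arrays plays no part, a ratio chosen after the values were seen. The log2 ratio of Dusp6 to Dusp7 was 1.00 and 0.19 on the IL15ko arrays, against 1.69, 1.67 and 1.69 on the WT arrays. The ratio was thus nearly the same on the 3 WT arrays and lower on both IL15ko arrays, with a difference of means of -1.09 and a two-sided exact permutation p of 0.1, the smallest that 2 arrays against 3 can give.

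Among the nuclear, inducible phosphatases, Dusp2 and Dusp5 had lower IL15ko values without passing the test. Dusp2, which is found mostly in blood and immune cells, had normalised log2 signals of 3.69 and 4.07 in IL15ko and of 4.73, 4.71 and 4.10 in WT. The groups were separated by only 0.03 log2 units, between IL15ko 2 and WT 3. The log2 difference was -0.64 ± 0.26 (SE, limma adjusted p = 0.189). Dusp5, a phosphatase specific for ERK, had -4.86 and -4.38 in IL15ko and -4.11, -4.26 and -4.30 in WT. Its groups lay 0.08 log2 units apart, and the log2 difference was -0.40 ± 0.19 (SE, limma adjusted p = 0.241). Neither was called under any of the 18 alternatives, in which Dusp2 ranged from -0.84 to -0.44 and Dusp5 from -0.64 to -0.15.

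Dusp1, the immediate-early phosphatase that turns off p38, JNK and ERK, varied more within the genotypes than between them. Its normalised log2 signals were -2.19 and -0.38 on the IL15ko arrays and 0.19, 0.01 and -1.34 on the WT arrays. WT 3 lay below IL15ko 2, so the groups overlapped. The range was 1.81 log2 units within IL15ko and 1.53 within WT, and 98.7% of all tested genes had a smaller spread within groups. The log2 difference was -0.91 ± 0.70 (SE, limma adjusted p = 0.441). It was 0.00 without IL15ko 1 and -1.81 without IL15ko 2, so 1 array decided its size.

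Dusp2 ordered the arrays much as Dusp1 did, with IL15ko 1 lowest and WT 1 and WT 2 highest in both. Other early-response genes did not share one order. Fosb had normalised log2 signals of -4.58 and -2.28 in IL15ko and of -4.58, -4.26 and -3.39 in WT, so IL15ko 2 was its highest array. Maff had -6.14 and -1.86 in IL15ko and -5.44, -5.28 and -6.28 in WT, again highest in IL15ko 2. Junb had -3.04 and -2.11 in IL15ko and -2.42, -1.86 and -1.76 in WT, and its lowest array was IL15ko 1. Fos and Fosl2 were also lowest on IL15ko 1 (-3.99 and -3.52), while Ier2 was lowest on WT 1 (-1.74) and Egr1 on WT 2 (-0.53). Handling of cells can induce such genes, and its part in these spreads was not tested.

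**Figure D3:**
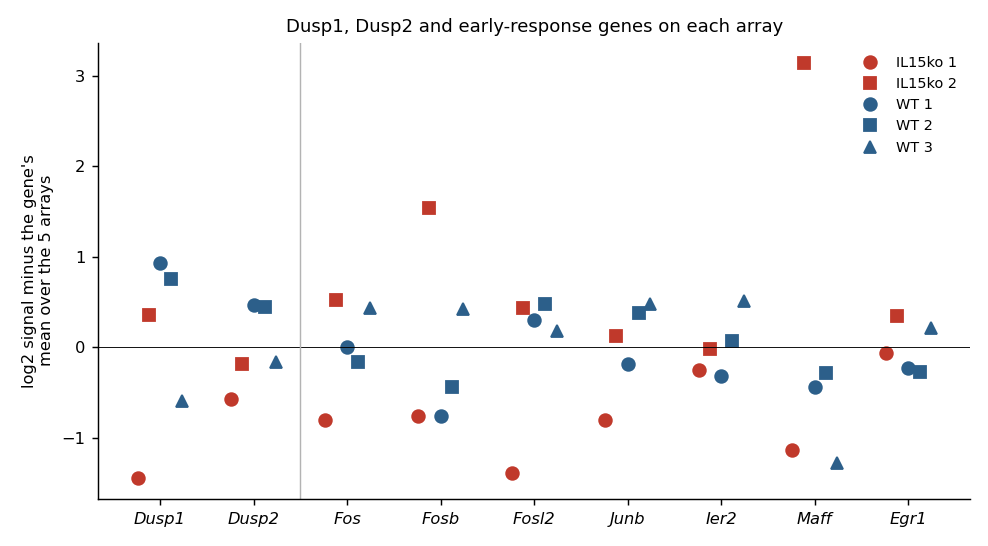
Normalised log2 signal of Dusp1, Dusp2 and 7 early-response genes, each minus its own mean over the 5 arrays (vertical axis, log2 units). Each marker is 1 array, red for IL15ko and blue for WT. IL15ko 1 is the lowest array for Dusp1 (-2.19 before centring), Dusp2, Fos, Fosl2 and Junb, and IL15ko 2 is far above the other arrays for Maff (-1.86 before centring).

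Dusp10, which prefers JNK and p38 over ERK, had normalised log2 signals of -4.15 and -3.61 in IL15ko and of -4.13, -4.26 and -4.70 in WT. The groups overlapped by 0.02 log2 units. The log2 difference was 0.48 ± 0.25 (SE, limma adjusted p = 0.28), and it lay between 0.22 and 0.75 over the alternatives. Dusp4, a nuclear phosphatase inducible by ERK, was near background throughout. It had -6.32 and -4.37 in IL15ko and -7.15, -6.85 and -7.29 in WT, and IL15ko 2, the dimmest array, was the only one on which it was well above background. With 1 detected value of 5, no order of the groups and no fold is given.

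Counted by position alone, the IL15ko values lay below all WT values in 4 of the 8 tested genes (Dusp2, Dusp5, Dusp6 and Spry2) and above them in 1 (Spry1), and the groups overlapped in 3. For Spry2 this order rests on IL15ko signals not well above background. Over all genes tested the shares were 22% below and 25.1% above. The sign of each of the 8 differences was the same with the percentile over all probes, median centring and quantile normalization. The 3 genes most like Dusp6 were found by the root-mean-square distance of their centred normalised log2 signals over the 5 arrays, among 9753 genes well above background on all arrays. They were Rcn1 (distance 0.0410), Nmb (0.0493) and Pelo (0.0672), with log2 differences of -1.33, -1.35 and -1.41. Differences close to that of Dusp6 follow from this choice and are no separate result. No such genes are named for Spry2, whose IL15ko signals were not well above background.

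The other phosphatase genes are given by family. Of the other typical MAP kinase phosphatases, Dusp8 and Dusp9 were on no array well above background, and Dusp16 had a log2 difference of -0.13 ± 0.23 (SE, limma adjusted p = 0.736). Of 15 atypical dual-specificity phosphatases 7 were tested and 1 was called lower, Dusp3, which acts on ERK and JNK. The share called lower was 3.58% over all genes tested. Dusp3 had normalised log2 signals of -6.60 and -7.03 in IL15ko, where it was not well above background, and of -5.66, -4.85 and -5.45 in WT. The lowest signal well above background on IL15ko 2, -4.92, lies above WT 1 and WT 3, so a separation is not established on that array. As a mean over both IL15ko arrays, the bound, approximate as for Spry2, was 1.33-fold lower in IL15ko. Dusp3 also met the requirement of 2 arrays only through WT. The fit of the measured signals was called (limma adjusted p = 0.0459), a call kept in 3 of 17 alternatives. The log2 difference was -0.25 with normexp and -0.38 in the authors' deposited table. Both are smaller than the bound (0.41 log2 units) and rest on a different background. The tyrosine phosphatase genes Ptpn5 and Ptpn7, whose products also act on MAP kinases, had log2 differences of -0.13 and 0.10 and did not pass.

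The other genes that restrain Ras were split. Among 17 listed genes 13 were tested, of which 1 fell, 2 rose and 10 missed the threshold, with a median log2 difference of -0.20. For all genes tested the shares were 3.58% lower and 3.75% higher, with a median of 0.01. Errfi1, a feedback inhibitor of receptor tyrosine kinases, had normalised log2 signals of -4.41 and -4.00 in IL15ko and of -2.70, -2.52 and -2.16 in WT. It fell 3.35-fold (95% confidence interval 2.27 to 4.96, limma adjusted p = 0.0194), a call kept in 12 of 18 alternatives. Rasal1 and Rasa4, which encode proteins that switch Ras off, were 2.24-fold and 1.98-fold higher in IL15ko (limma adjusted p = 0.0281 and 0.04), calls kept in 9 of 18 alternatives each. Spred1 and Spred2, relatives of the Sprouty genes, had log2 differences of 0.20 and 0.73 and did not pass (limma adjusted p = 0.603 and 0.18), and Spry3, Spry4 and Spred3 were on no array well above background.

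None of the kinases and adaptors of the Ras-ERK cascade passed the test. Of 21 listed genes 18 were tested, and limma called 0 higher and 0 lower, with 2 higher and 1 lower at an unadjusted p under 0.05 and a median log2 difference of 0.09. Mapk3, which encodes an ERK kinase that Dusp6 dephosphorylates, had a log2 difference of 0.16 ± 0.15 (SE, limma adjusted p = 0.53). Its interval of the fold (IL15ko over WT) was 0.858 to 1.45.

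In the JNK, p38 and ERK5 cascades 3 of 19 tested genes rose, 0 fell and 16 missed the threshold, with a median log2 difference of 0.19. All genes tested had 3.75% called higher, 3.58% called lower and a median of 0.01. The 3 were kinases at the end of the cascades. Mapk12, a p38 kinase gene, had normalised log2 signals of -3.82 and -4.01 in IL15ko and of -5.74, -6.45 and -5.85 in WT, where 2 of 3 arrays were well above background. It rose 4.28-fold (limma adjusted p = 0.0174), and its log2 difference of 2.10 was 0.71 in the lowest of 17 alternatives. Mapk10, a JNK gene known mainly from the nervous system, rose 3.25-fold (95% confidence interval 2.46 to 4.29, limma adjusted p = 0.0104). Mapk11, a further p38 gene, rose 2.20-fold (limma adjusted p = 0.0174). The calls were kept in 13 of 18 alternatives for Mapk10, 11 of 18 for Mapk11 and 13 of 17 for Mapk12, and all 3 were lost without WT 1 (adjusted p = 0.0682, 0.0851 and 0.0655). Mapk14, the main p38 gene of T cells, had a log2 difference of -0.41 ± 0.12 (SE, limma adjusted p = 0.112).

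Among transcripts that ERK activity induces, 1 was called. Of 18 listed, 15 were tested, of which 1 fell, 0 rose and 14 missed the threshold. The median log2 difference was 0.24, against 0.01 over all genes tested, of which 3.58% were called lower and 3.75% higher. At an unadjusted limma p under 0.05, 1 was higher and 2 were lower. The called gene was Cd69, an early activation antigen, with normalised log2 signals of -4.08 and -3.10 in IL15ko and of -1.95, -1.89 and -1.86 in WT. Cd69 fell 3.22-fold (limma adjusted p = 0.0375), a call kept in 10 of 18 alternatives. Ier5 had a log2 difference of -1.44 ± 0.32 (SE, limma adjusted p = 0.0611) and was not called. Its IL15ko values lay at least 0.85 log2 units below all WT values. Egr1 and Egr2, early transcription factor genes downstream of ERK, had log2 differences of 0.24 ± 0.22 and 0.39 ± 0.16 (SE, limma adjusted p = 0.524 and 0.186). Etv4 and Etv5, ETS factor genes that often move with Dusp6 and Spry2 in other settings, had log2 differences of 0.79 ± 0.35 and 0.33 ± 0.18 (SE, limma adjusted p = 0.217 and 0.299). Their IL15ko values lay above all WT values by only 0.01 and 0.04 log2 units, a position that 25.1% of all genes tested had.

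**Figure D4:**
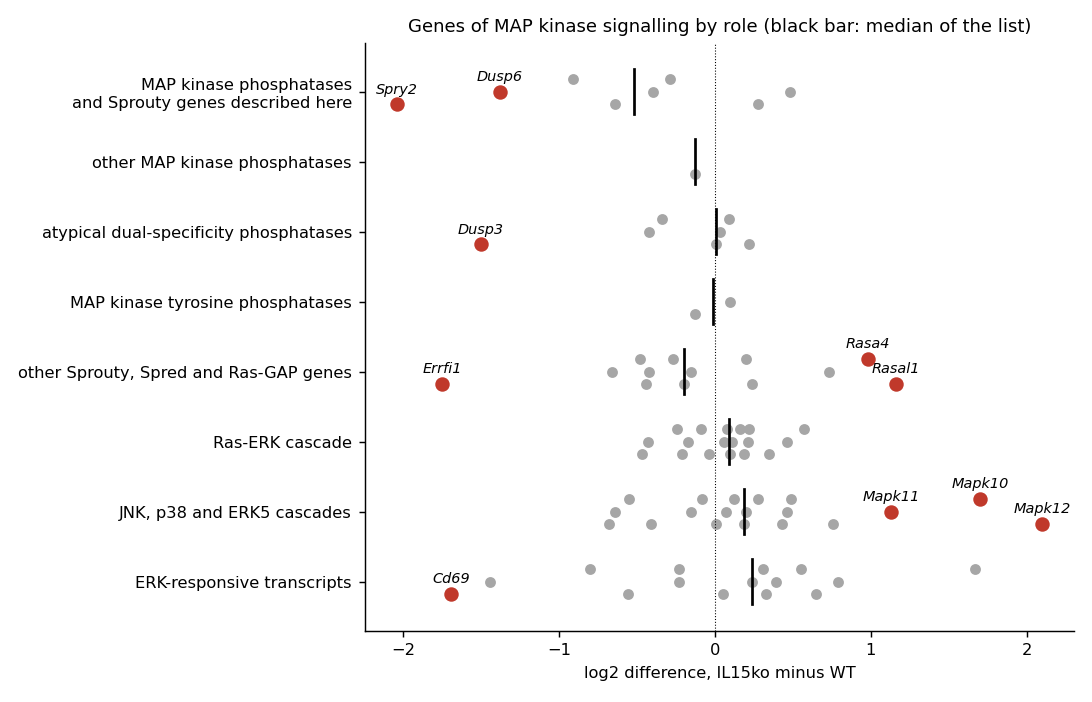
Log2 difference (IL15ko minus WT, horizontal axis) of every tested gene of MAP kinase signalling, 1 row for each list. Red dots are called at an adjusted p under 0.05 and named, grey dots are not called, and black bars are medians. Called genes lie on both sides of 0, among them Errfi1 (-1.75) and Mapk10 (1.70), and the values of Spry2 and Dusp3 rest on IL15ko signals not well above background.

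Markers of other cells were examined beside these results. The summed linear level of 7 NK-cell and innate lymphoid markers was 3.86 to 5.19 in IL15ko and 19.2 to 20.4 in WT, in units of each array's 75th percentile. This sum thus moved with the genotype, as Dusp6 did. Of the T-cell markers, Zbtb16, which encodes the transcription factor PLZF of NKT cells, was 2.83-fold higher in IL15ko and Cd5 was 1.58-fold higher (limma adjusted p = 0.0161 and 0.0398), and both thus also moved with the genotype. Of the 7 NK-cell and innate lymphoid markers, Ncr1 was on no array well above background, and Klra8, Klra4, Klrb1c and Klre1, which NKT cells of the NKT1 subset also express, were called lower. Those called genes made up nearly all of the summed level. Eomes was well above background on 1 WT array only, and Itga2 on 2 WT arrays only (log2 difference -0.75, limma adjusted p = 0.218). Of 5 macrophage and dendritic cell markers with a probe, Adgre1, Itgax and Lyz2 were on no array well above background, while Csf1r had normalised log2 signals of -2.63 and -3.82 in IL15ko and of -1.14, -0.33 and -1.34 in WT (limma adjusted p = 0.0508). The summed level of those 5 was 30.2 to 40.7 in IL15ko and 30.9 to 48.5 in WT. Nearly all of it was Siglech, a plasmacytoid dendritic cell gene, at 30.1 and 40.6 in IL15ko and 44.2, 47.7 and 30.5 in WT. This probe, the brighter of 2 for Siglech, exceeded the T-cell gene Lck (24.4 to 26.3) on every array. Whether its signal came from dendritic cells was not tested, and the other probe is not described here. Of 6 markers of double-positive thymocytes, Cd8a, Cd8b1, Ptcra, Rag1 and Rag2 were on no array well above background. The remaining one, Dntt, was well above background on all 5 arrays. Its normalised log2 signals were -4.57 and -3.05 in IL15ko and -3.12, -3.34 and -5.20 in WT (limma adjusted p = 0.959). No B-cell, thymic stroma or erythroid marker was called. Of those tested, Cd79b had a log2 difference of 0.92 (limma adjusted p = 0.0881), Krt5 of -0.07 and Hba-a1 of -0.51. Epcam was well above background on WT 1 and WT 2 only (log2 difference -1.73, limma adjusted p = 0.223). The part of other cells or of NKT subset shares in the lower signals of Dusp6 and Spry2 was not tested.

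The start regions of 8 of the 9 genes, all but Dusp4, were read from a table of RefSeq promoters (assembly GRCm38.p6). Each window runs from 250 bases before to 50 bases after the transcription start, and both strands were searched for letters that 4 factor families recognise. The palindrome TTCNNNGAA, bound by STAT factors such as the STAT5 proteins that IL-15 activates, occurred in 0 of the 8 windows and in 8.3% of all 32851 windows. The AP-1 letters TGANTCA occurred in 0 of 8 and in 7.81% of all windows. The ETS letters CCGGAA occurred in 1 of 8 (Spry2, at base 34 after the start) and in 14.9% of all. The letters TGACG, which make up one side of a cAMP response element, occurred in 3 of 8 (Dusp1, Dusp2 and Dusp5) and in 20.8% of all. G and C made up 57.3% to 78.7% of the bases in the 8 windows, against a median of 52.7% over all windows. The shares thus do not compare windows of like base content. Absent letters say nothing about binding elsewhere.

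The 250 bases before the start are shown for Dusp6 and Spry2, the genes called lower, and for Dusp1, the most variable one. Capitals mark the searched letters, and sequences run 5′ to 3′ on the gene's strand.
Dusp6, chr10:99262981-99263230, plus strand: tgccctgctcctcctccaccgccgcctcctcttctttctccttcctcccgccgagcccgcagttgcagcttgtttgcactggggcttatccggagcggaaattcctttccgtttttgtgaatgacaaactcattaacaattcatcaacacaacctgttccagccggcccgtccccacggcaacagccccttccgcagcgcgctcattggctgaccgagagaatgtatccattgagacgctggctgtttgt
Spry2, chr14:105896820-105897069, minus strand: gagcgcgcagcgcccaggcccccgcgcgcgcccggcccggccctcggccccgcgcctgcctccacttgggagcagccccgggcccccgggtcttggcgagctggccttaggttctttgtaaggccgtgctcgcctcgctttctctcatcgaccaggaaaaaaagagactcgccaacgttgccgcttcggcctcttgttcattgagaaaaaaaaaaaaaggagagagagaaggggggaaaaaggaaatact
Dusp1, chr17:26508473-26508722, minus strand: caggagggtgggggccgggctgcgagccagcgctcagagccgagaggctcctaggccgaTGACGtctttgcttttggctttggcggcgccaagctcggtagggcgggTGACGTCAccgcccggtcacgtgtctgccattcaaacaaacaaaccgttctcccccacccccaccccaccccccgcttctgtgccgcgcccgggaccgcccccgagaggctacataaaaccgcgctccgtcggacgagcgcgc
In Dusp1 the matches begin at positions -191, -143 and -140 from the start, and the last pair overlap in the full 8-base response element TGACGTCA, which none of the other searched upstream regions holds. The Dusp6 and Spry2 upstream regions hold none of the searched letters.

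**Figure D5:**
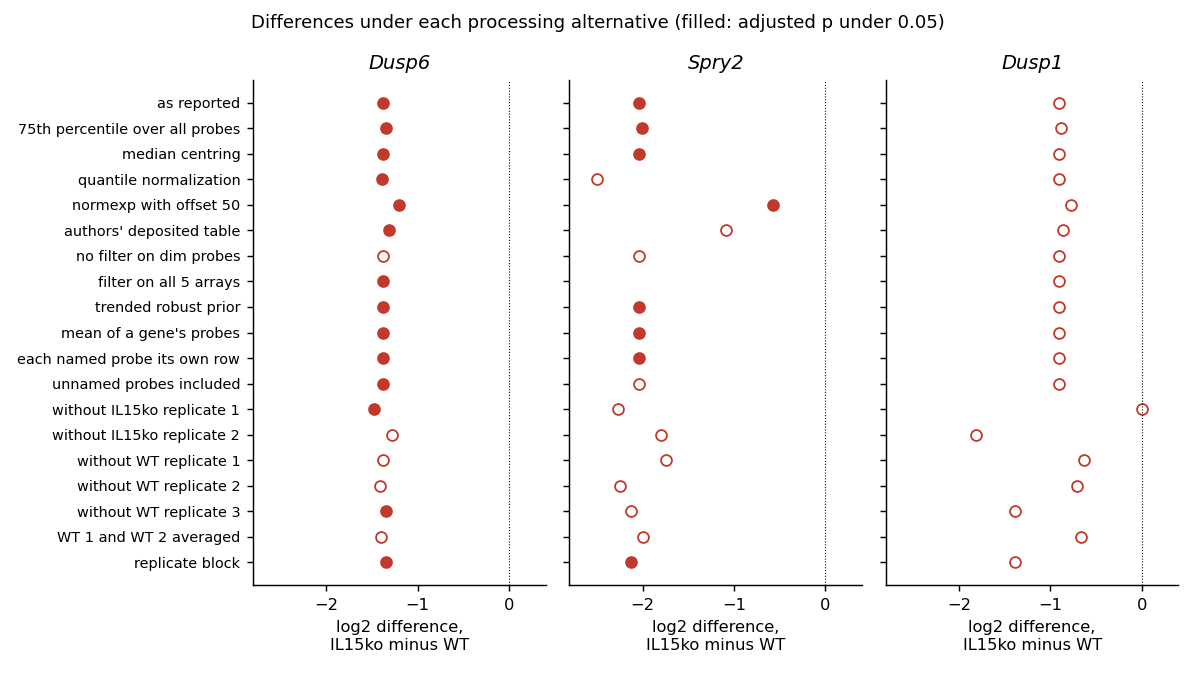
Log2 difference (IL15ko minus WT, horizontal axis) of Dusp6, Spry2 and Dusp1 as reported and under each processing alternative. Filled dots have an adjusted p under 0.05, and Spry2 has no dot where its probe was not tested. Dusp6 stays between -1.48 and -1.20, Spry2 between -2.50 and -0.57, and Dusp1 between -1.81 and 0.00.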

How the data were processed

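Spot intensities on a linear scale, written by Agilent Feature Extraction 10.7.1.1 per the file headers, make up the deposited scanner output, in which processed signals had the background subtracted and were detrended, without scaling between arrays. Besides this software, limma is named in the submitters' processing notes. The authors' deposited value table holds linear intensities equal, for bright spots, to the median of the spot less that of its local background, up to a constant per array; its column medians were 26.4 and 16.2 (IL15ko) and 27.2, 24.6 and 29.0 (WT), so it is not scaled between arrays either.

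Control and outlier spots were left out, spots of a probe were averaged, and log2 processed signals were scaled by each array's 75th percentile over 18519 probes that all 5 arrays detected. Accessions were matched without versions to RefSeq's GRCm38.p6 annotation, which named 26425 of 55681 probes. Each gene was represented by its brightest probe. Genes detected on 2 or more arrays were fitted with lmFit and eBayes of limma 3.58.1 (R 4.3.3, no covariates, 3 residual and 2.28 prior degrees of freedom) and adjusted by Benjamini-Hochberg over 11997 genes. No spot was saturated. Errors of differences are moderated standard errors. The number of arrays limits the precision, and p-values reflect no more than the spread between these samples, possibly a technical one.

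On simulated arrays of 11990 genes for this comparison, recovery was 36% for 2-fold changes, 80% for 4-fold, 86% for 8-fold and 94% for 16-fold. Of the called genes 3.27% had been left unchanged. The simulated noise was independent between genes and arrays. It held none of the differences between arrays described above, so these rates may not hold for the real arrays. The members, lists and tests were chosen with earlier results of these data known, so no list was tested as a set. Named are all members, called genes of the lists and others needed for a count, the markers and the 3 genes most like Dusp6. The normexp alternative used median spot signals in place of mean ones.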

Additional observations from a re-analysis of the deposited data

How the results depend on the processing

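A total of 18 alternatives were run. Dusp6 kept its direction in all 18 and its call in 13, and Spry2 in all 17 that tested it and its call in 7. Dusp7 changed sign without IL15ko 1 (0.01), and the other members kept theirs, apart from Dusp1 at 0.00 there. Leaving out 1 array gave between 1 and 373 genes called higher and between 8 and 411 lower (450 and 429 as reported), between 0 and 1 members lower (2 as reported), and between 0 and 3 genes of the MAP kinase lists higher and between 0 and 2 lower (5 and 3 as reported). Without IL15ko 2 Dusp7 was at -0.60. The low counts came without WT 1, where 1 gene was higher and 8 lower, with 2046 genes at an unadjusted limma p under 0.05. With WT 1 and WT 2 averaged into 1 sample, 34 genes were higher and 67 lower, 0 members were lower, and 1 and 0 listed genes were higher and lower (2228 genes at an unadjusted p under 0.05). Without the filter on dim probes, which raised the number tested to 20022, 0 genes were higher and 3 lower, with 0 members and 0 and 0 listed genes (2750 at an unadjusted p under 0.05). With the filter on all 5 arrays 710 genes were higher, and 1 member was lower since Spry2 was not tested. With a trended robust prior 820 and 695 genes were called, and 6 listed genes lower. With normexp 822 genes were higher and 5 listed genes lower, and with the mean of a gene's probes 5 listed genes were lower. With the authors' deposited table, and with unnamed probes included, 1 member and 1 listed gene were lower, and with quantile normalization 1 member was lower. The cause of these shifts was not tested, apart from the changes in the number tested.

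With the replicate number as a block, 138 genes were called higher and 241 lower, and 2 and 1 listed genes, while Dusp6 (adjusted p = 0.045) and Spry2 (adjusted p = 0.0388) stayed called. The numbers were not taken to pair the samples, since the genotypes share only 2 of them, with a correlation of deviations from the group means of -0.129 for the arrays numbered 1 and 0.209 for those numbered 2. Signal over background limits Spry2 and Dusp3, which have only approximate bounds, and Dusp4, which has none.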
